A study of Danio rerio with 20 samples.

Results

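The binding sites of the transcription factors Meis2b and Sox3 were compared in zebrafish gastrulae exposed to all-trans retinoic acid (atRA). A site was counted for a factor where peaks of both replicate libraries overlapped by at least 1 bp on chromosomes 1 to 25. By this rule there were 16427 Meis2b sites and 63239 Sox3 sites. Merged where they overlapped, they made 67110 regions, of 124012 regions found when the sites of all 10 groups of the series were merged. Of the 67110 regions, 12172 held sites of both factors (shared regions), 4104 a Meis2b site only and 50834 a Sox3 site only.

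Meis2b is a homeodomain protein of the TALE class. Meis proteins act as partners of Pbx and Hox proteins on DNA, and in the early embryo they take part in the patterning of the hindbrain, where retinoic acid sets anterior and posterior identity. Sox3 belongs to the SoxB1 group of HMG-box proteins, which bend DNA and are active in the ectoderm from before gastrulation and later in neural progenitors. SoxB1 proteins are known for binding widely in the genome of early embryos, at enhancers of developmental genes.

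All embryos were wild type, and each library was made from chromatin of whole embryos. The stage was 80% epiboly, late in gastrulation, except for the later Raraa libraries named below. The treated embryos had been in 0.1 µM atRA since 30% epiboly, and the untreated controls had not. Libraries were made by ChIPmentation, in which the Tn5 transposase adds sequencing adapters to the precipitated chromatin. The comparison rests on 4 treated libraries, 2 with a Meis2b antibody and 2 with a Sox3 antibody. Apart from some comparisons with other antibodies and with controls, the other 16 libraries of the series were used to ask what else was called at the same places. They are treated Hoxb1b and Raraa, untreated Meis2b, Sox3, Hoxb1b and Raraa at 80% epiboly, and untreated Raraa from later embryos (5 somites, and 24 hpf, hours after fertilisation). Each group had 2 libraries. The labels do not say whether same-numbered libraries shared embryos or chromatin, so spreads between replicates may be technical. In whole embryos, binding in the same cells and binding in different cells cannot be told apart, nor can fewer bound cells and weaker binding per cell.

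The 2 factors were measured at unequal depth. The lists held 58690 and 43644 peaks in Meis2b replicates 1 and 2, and 135299 and 132311 peaks in Sox3 replicates 1 and 2. The mean log2 ratio of peak number, Meis2b over Sox3, was -1.40 (p = 0.333, exact permutation test, two-sided, the smallest p that 2 libraries against 2 allow). The deposited lists hold no read counts. The number of fragments over each summit and over its background was recovered from the authors' fold enrichment and p-value, and the 0.001 quantile of the backgrounds of a list, near its lowest, serves as its depth. It was 0.494 and 0.256 fragments covering a base in Meis2b replicates 1 and 2, against 1.12 and 1.02 in the Sox3 replicates. Median fold enrichment over the local background lay close together, at 4.96 and 5.03 in the Meis2b lists and 4.47 and 4.62 in the Sox3 lists. The largest number of fragments over any single summit of a list was 185 and 173 with Meis2b and 197 and 181 with Sox3. That summit need not be the strongest by the authors' p.

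Most Meis2b sites lay on Sox3 sites, whereas most Sox3 sites held no Meis2b site. Of the Meis2b sites, 12323 overlapped a Sox3 site by at least 1 bp, which is 75.0% (exact Clopper-Pearson 95% interval 74.3 to 75.7, counting error only). Of the Sox3 sites, 12405 overlapped a Meis2b site, which is 19.6% (95% interval 19.3 to 19.9). For scale, Sox3 sites covered 1.99% of the chromosome length and Meis2b sites 0.523%. Another 1677 Meis2b sites held a Sox3 peak but no Sox3 site, and 2427 sites (14.8%) held no Sox3 peak in either library. Among Sox3 sites, 14643 held a Meis2b peak without a Meis2b site, and 36191 (57.2%) held no Meis2b peak at all. The overlaps were rarely marginal. Overlapping sites had 364 bp in common at the median, and 79 of 12556 site pairs had less than 50 bp in common. Of the 4104 Meis2b sites off Sox3 sites, 38 ended within 50 bp of one. In 11797 shared regions (96.9%) there was 1 site of each factor.

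**Figure D1:**
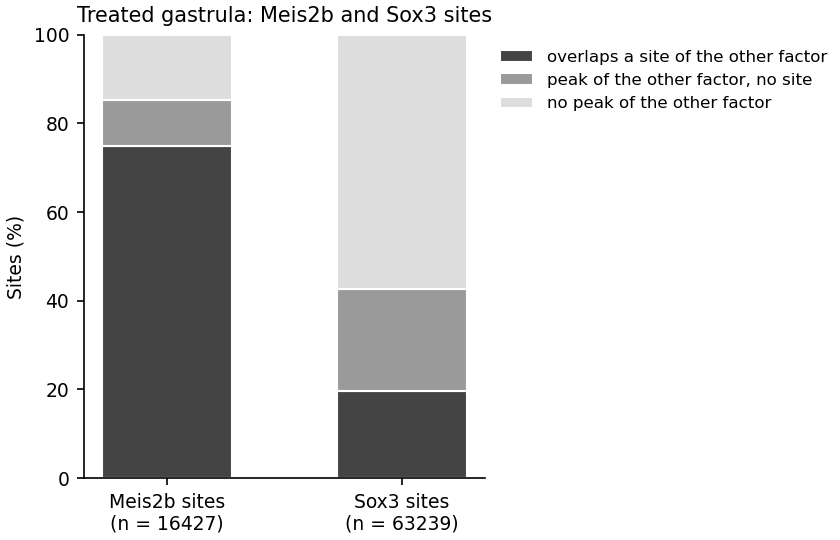
Share of Meis2b sites (left bar) and of Sox3 sites (right bar) by what was called with the other antibody, in percent of the sites of that factor. The dark part is 75.0% of the Meis2b sites and 19.6% of the Sox3 sites.

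The shares depended on the length of the lists and on the demand for 2 replicates. When each of the 4 lists was kept to its 10000 strongest peaks, 50.6% of the Meis2b sites overlapped a Sox3 site, and 38.3% of the Sox3 sites overlapped a Meis2b site. Taking every peak of the remaining library as a site, the Meis2b share was 42.8% without Meis2b replicate 1 and 39.2% without Meis2b replicate 2. The Sox3 share was 34.7% without Meis2b replicate 2, and 10.5% and 10.1% without Sox3 replicates 1 and 2. The rule keeps the stronger peaks. Peaks inside Meis2b sites had a median fold enrichment of 6.43 and 6.15 in replicates 1 and 2, against 4.69 and 4.76 for Meis2b peaks outside sites. With Sox3 the medians were 5.30 and 5.52 inside sites, against 4.22 and 4.29 outside.

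Libraries of the same antibody resembled each other more than libraries of different antibodies. Among the 10000 strongest peaks, the Meis2b replicates shared 61.3% and the Sox3 replicates 80.0%. The pairings of a Meis2b with a Sox3 library shared 43.7% and 43.0% for Meis2b replicate 1, and 42.1% and 41.6% for Meis2b replicate 2. The mean overlap was 28.1 percentage points higher within an antibody (p = 0.333, exact permutation test over the 3 ways of pairing 4 libraries, one-sided, the smallest p this design allows). This difference was 46.5 points among the 1000 strongest peaks, 9.02 points among all peaks and 18.4 points without Sox3 replicate 2.

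Sharing went with strength, and more steeply for Sox3. Sites were ranked by the authors' p within each list and divided into 10 equal strength classes. In the strongest class of Meis2b sites, with median summits of 46 and 36 fragments in replicates 1 and 2, 92.9% overlapped a Sox3 site. In the weakest class, at 6 and 5 fragments, 50.9% did. In the strongest class of Sox3 sites, with summits of 57 and 55 fragments, 68.0% overlapped a Meis2b site, against 3.12% in the weakest class, at 8 and 8 fragments. In both factors the share fell at each step from the strongest to the weakest class. Depth moved with this result, since the Meis2b lists were the shallower, and its part in the low share of weak Sox3 sites was not tested.

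**Figure D2:**
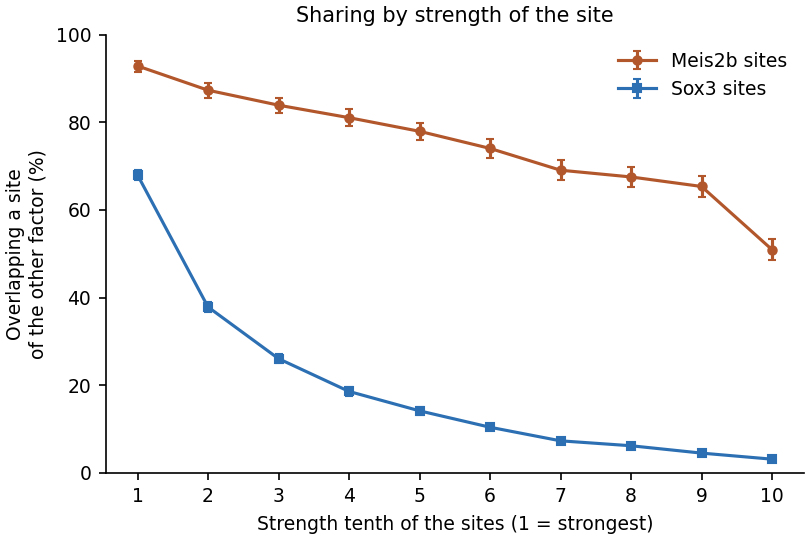
Share of sites that overlap a site of the other factor (y axis, percent) in 10 equal classes of strength (x axis, 1 is the strongest), for Meis2b sites (circles) and Sox3 sites (squares). Bars are exact 95% binomial intervals, which cover counting of sites only; Meis2b falls to 50.9% and Sox3 to 3.12% in the weakest class.

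Sites bound by both factors were also the stronger ones in every library. In Meis2b replicates 1 and 2, shared Meis2b sites had a median fold enrichment of 6.85 and 6.54, against 5.52 and 5.48 at Meis2b sites off Sox3 sites. In Sox3 replicates 1 and 2, shared Sox3 sites had 7.57 and 8.04, against 5.18 and 5.42 at Sox3 sites off Meis2b sites. The gap between classes exceeded the gap between replicates with both antibodies. Shared sites were wider too, with a median of 415 bp against 319 bp for the other Meis2b sites, and of 555 bp against 338 bp for the other Sox3 sites. Over the 12172 shared regions, fold enrichment and summit fragments ranked alike within a factor and less alike between factors. Spearman's rho of fold enrichment was 0.65 between the Meis2b replicates, 0.86 between the Sox3 replicates and 0.33 to 0.37 for the 4 pairings of a Meis2b with a Sox3 library. For the fragments over the summit it was higher, at 0.79, 0.94 and 0.48 to 0.49 in the same order. These values describe regions that share their libraries and carry no test.

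In shared regions the summits of Meis2b and Sox3 lay only slightly farther apart than the summits of Meis2b replicates. The median distance between a Meis2b and a Sox3 summit was 62 and 61 bp for Meis2b replicate 1 with Sox3 replicates 1 and 2, and 66 and 64 bp for Meis2b replicate 2. It was 58 bp between the Meis2b replicates and 43 bp between the Sox3 replicates, over the same 12172 regions. Averaged, distances between antibodies exceeded those within an antibody by 12.8 bp (p = 0.333, exact permutation test over 3 pairings, one-sided, the smallest p possible). The difference was 5 and 6 bp without Sox3 replicates 1 and 2, and 23 and 20 bp without Meis2b replicates 1 and 2. The excess was thus larger over the Sox3 pair, the deeper libraries, than over the Meis2b pair. The site rule itself holds replicate summits together, since replicate peaks had to overlap each other. A Meis2b and a Sox3 peak only had to lie in overlapping sites. The part of this rule in the excess was not tested. Chromatin was sheared to fragments of about 300 bp, which is several times these distances.

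**Figure D3:**
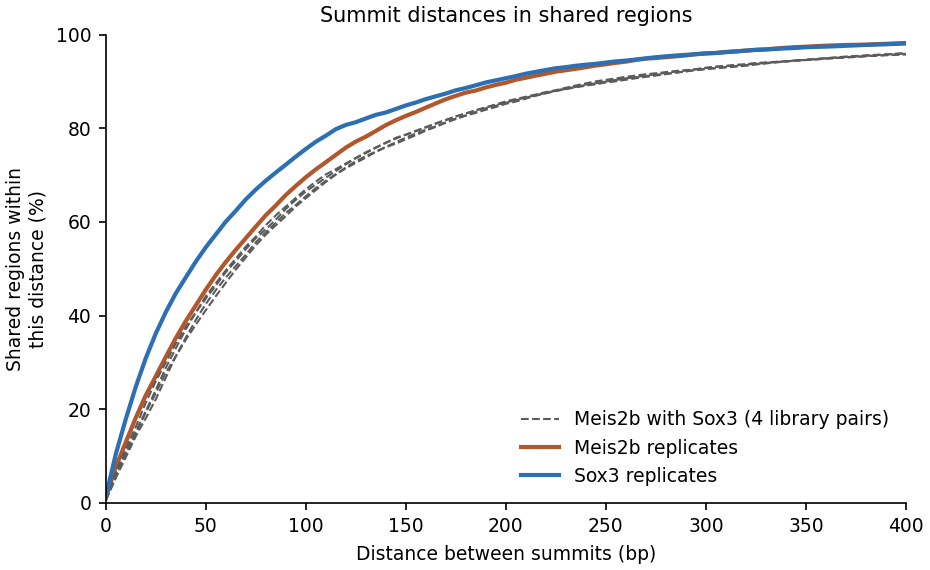
Cumulative share of the 12172 shared regions (y axis, percent) whose summits lie within a given distance (x axis, bp). Dashed lines are the 4 pairings of a Meis2b with a Sox3 library, solid lines the replicate pairs; the dashed medians lie at 61 to 66 bp, the Meis2b replicates at 58 bp and the Sox3 replicates at 43 bp.

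Distances between antibodies had the longer tail, but the site rule, which asks overlap of replicate peaks only, shortens the tail between replicates. Its part in the difference was not tested. Between antibodies, 14.2% to 14.8% of the regions had summits more than 200 bp apart, against 10.2% between the Meis2b replicates and 9.28% between the Sox3 replicates. Stronger regions had closer summits in all 6 pairs. In the strongest of 10 classes of shared regions (1218 regions), the medians were 34 to 38 bp between antibodies, 28.5 bp between Meis2b replicates and 23 bp between Sox3 replicates. In the weakest class they were 86.5 to 88.5 bp between antibodies, 79 bp between Meis2b replicates and 67 bp between Sox3 replicates. Distances to Hoxb1b summits were of similar size. At the 9961 shared regions also called in both treated Hoxb1b libraries, medians were 61 to 66 bp for Meis2b with Sox3 and 63 to 69 bp for Meis2b with Hoxb1b. They were 53 to 59 bp for Sox3 with Hoxb1b and 57 bp between the Hoxb1b replicates. Sox3 and Hoxb1b summits thus lay about as close as those of the Hoxb1b replicates.

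A small number of shared regions held Meis2b and Sox3 summits at separate places. In 1710 regions the summits of each replicate pair lay within 30 bp, and in 178 of these (10.4%) every Meis2b summit was at least 100 bp from every Sox3 summit. Grouping the libraries across antibodies instead, Meis2b 1 with Sox3 1 against Meis2b 2 with Sox3 2, gave 43 of 1263 regions (3.40%), and the remaining grouping gave 45 of 1264 (3.56%). The separation by antibody was above both other groupings, but the 3 groupings are not alike under the site rule. The other groupings need replicate summits at least 100 bp apart, although replicate peaks had to overlap. The comparison therefore cannot decide how many regions with separate summits summit calling alone would give. In the 3 strongest such regions with 1 site of each factor, chosen after the distances were seen, the mean Meis2b summit lay at the lower coordinate. At chromosome 5, 65324417 to 65324952, the Meis2b minus Sox3 position was -198.5 bp, with fold enrichments of 21.3 and 21.0 for Meis2b and 16.5 and 17.7 for Sox3. At chromosome 4, 11279665 to 11280559, it was -297.5 bp, and at chromosome 19, 2525629 to 2526326, it was -137.5 bp. At the other extreme, all 4 summits fell within 30 bp in 575 shared regions (4.72%).

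Shared regions were mostly Hoxb1b sites as well, and regions of a single factor mostly were not. Hoxb1b is a Hox protein of the hindbrain that binds DNA together with Pbx and Meis partners, and Raraa is a receptor for retinoic acid. Of all 67110 regions, 37.2% overlapped a treated Hoxb1b site and 23.4% a treated Raraa site. A treated Hoxb1b site was present at 9860 shared regions (81.0%), at 743 Meis2b-only regions (18.1%) and at 14353 Sox3-only regions (28.2%). Treated Raraa sites were present at 50.8% of shared, 7.89% of Meis2b-only and 18.1% of Sox3-only regions. All 4 factors had sites at 5777 shared regions (47.5%), and 1901 shared regions (15.6%) had neither a Hoxb1b nor a Raraa site. In contrast, 77.0% of Meis2b-only regions (3160 regions) and 64.2% of Sox3-only regions (32651 regions) had neither. Hoxb1b and Raraa sites were both present at 123 of 4104 Meis2b-only regions and at 5365 of 50834 Sox3-only regions. The Sox3-only class held 75.7% of all 67110 regions, and most regions with neither site lay in it (32651, against 3160 Meis2b-only and 1901 shared). Regions with both sites were more numerous in the shared class (5777) than in the Sox3-only class (5365), although the shared class was the smaller.

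The same order held in single libraries. Over all regions, peaks of Hoxb1b atRA replicates 1 and 2 were present at 55.7% and 46.4%, and peaks of Raraa atRA replicates 1 and 2 at 63.8% and 26.3%. Peaks of Hoxb1b atRA replicates 1 and 2 were present at 91.4% and 85.3% of shared regions, 34.6% and 27.7% of Meis2b-only regions and 48.8% and 38.6% of Sox3-only regions. Peaks of Raraa atRA replicates 1 and 2, libraries of very different depth, were present at 87.5% and 53.3%, at 41.5% and 9.94%, and at 60.0% and 21.1% of the 3 classes in that order. Within each library the shared class stood highest. Shared regions had the highest share of peaks in 16 of the 16 other libraries, later Raraa stages included. Sox3-only regions stood above Meis2b-only regions in 14 of 16, and the exceptions were the 2 Meis2b control libraries. The Meis2b and Sox3 control libraries were made with the antibodies that define the classes. Their order of the classes is therefore not independent of the definition. These shares describe the regions. The libraries read the same regions, so no test was made of the order.

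**Figure D4:**
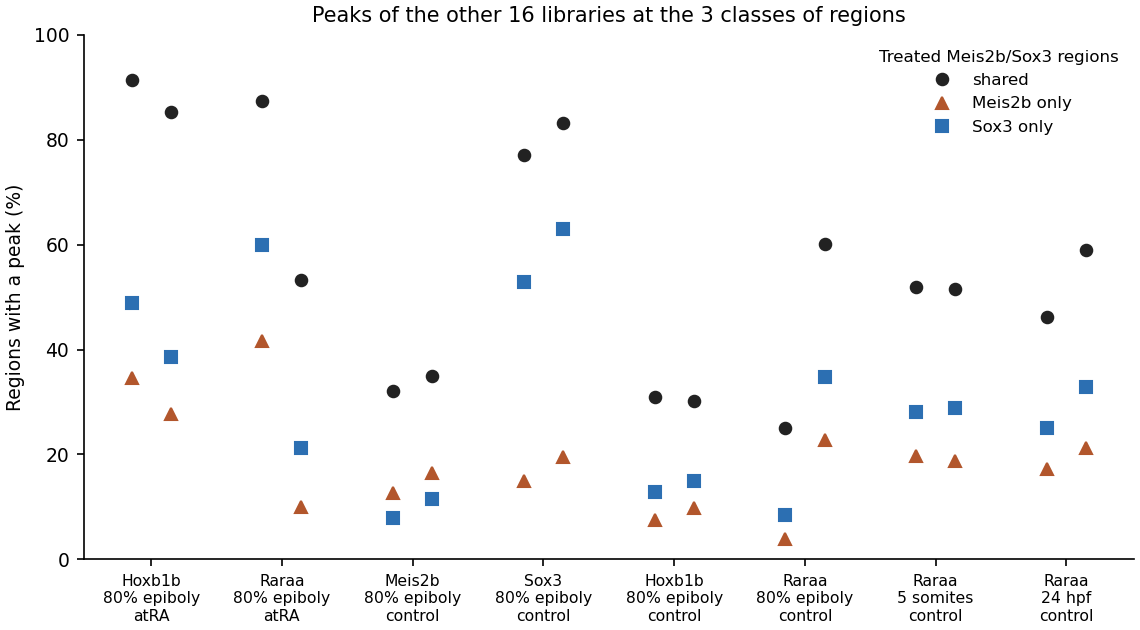
Share of shared regions (circles), Meis2b-only regions (triangles) and Sox3-only regions (squares) that hold a peak (y axis, percent) in each of the other 16 libraries (x axis, groups; replicate 1 left and replicate 2 right). The circles are highest in all 16 libraries.

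The margin in Hoxb1b was also present within classes of strength, each ranked on a single factor. Strength was not matched inside a class, so shared and single-factor regions of a class may still differ in it. When Meis2b regions were divided into 5 equal strength classes, Hoxb1b peaks were more frequent at shared than at Meis2b-only regions in all 5, by 49.5 to 55.6 percentage points in Hoxb1b replicate 1 and 52.0 to 57.9 in replicate 2. In the strongest class the values were 98.3% and 95.4% at shared regions against 47.1% and 37.5% at Meis2b-only regions. Among Sox3 regions the margin of shared over Sox3-only was smaller, at 14.7 to 38.7 points in Hoxb1b replicate 1 and 24.3 to 33.2 in replicate 2, and also above 0 in all 5 classes. A strong Sox3 site without a Meis2b peak often held a Hoxb1b peak nonetheless. Of 806 Sox3 sites in the strongest 10% with no Meis2b peak, 84.0% and 63.8% held a peak of Hoxb1b replicates 1 and 2. Among the 4300 shared Sox3 sites in the strongest 10%, 99.1% and 97.1% did. Of 65 Meis2b sites in the strongest 10% with no Sox3 peak, 41.5% and 35.4% held a Hoxb1b peak, against 98.95% and 97.3% of 1526 shared ones.

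Most shared regions were also called with Sox3 in untreated embryos, and fewer with Meis2b. Of all 67110 regions, 54.9% and 64.0% held a peak of Sox3 control replicates 1 and 2, and 12.6% and 16.1% a peak of Meis2b control replicates 1 and 2. At shared regions, peaks were present in Sox3 control replicates 1 and 2 at 77.0% and 83.3%, and in Meis2b control replicates 1 and 2 at 32.1% and 35.0%. At Meis2b-only regions the Sox3 controls had 14.9% and 19.5%, and the Meis2b controls 12.7% and 16.5%, close to the shares over all regions. At Sox3-only regions the Sox3 controls had 52.8% and 62.9%, and the Meis2b controls 7.96% and 11.5%. Counted as sites of both replicates, Meis2b control sites were present at 17.7% of shared, 5.19% of Meis2b-only and 1.98% of Sox3-only regions, against 5.02% of all regions. Sox3 control sites were present at 70.7%, 6.75% and 43.0% of the same classes, against 45.8% of all regions. Within the Sox3 control files both replicates are numbered 2, so their numbers here follow the sample labels. The background of the Meis2b controls was below that of the Sox3 controls, at 0.199 and 0.267 fragments covering a base, against 0.425 and 0.969. In treated Meis2b replicates 1 and 2 it was 0.494 and 0.256, so treated replicate 2 was about as shallow as the Meis2b controls. The part of depth in the lower Meis2b shares was not tested.

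By their control peaks the shared regions fell mainly into 2 kinds. In 5496 (45.2%) both factors had a peak in at least 1 control library. In 5337 (43.8%) only Sox3 did, which was more frequent at Sox3-only regions (59.2%). Only Meis2b had a control peak in 354 (2.91%), and neither factor in 985 (8.09%). Among Meis2b-only regions, 58.3% had no control peak of either factor, and among Sox3-only regions 23.5%. Sox3-only regions made up 75.7% of all 67110 regions, so their shares weigh most in the shares over all regions. Both factors had a control peak in 9.80% of Meis2b-only and 14.0% of Sox3-only regions. Meis2b alone had one in 14.1% of Meis2b-only and 3.25% of Sox3-only regions, against 2.91% of shared regions. Sox3 alone had one in 17.8% of Meis2b-only and 59.2% of Sox3-only regions. A control peak of Sox3 alone was thus less frequent at shared than at Sox3-only regions, whereas control peaks of both factors were more frequent. Counted with or without a Meis2b control peak, Sox3 control peaks were more frequent at shared regions. They were present there at 77.0% and 83.3% in control replicates 1 and 2, against 52.8% and 62.9% at Sox3-only regions. Within 5 equal strength classes of Sox3 regions, Sox3 control peaks were not steadily more frequent at shared than at Sox3-only regions. The differences ran from -3.12 to 8.17 points in Sox3 control replicate 1 and from -4.44 to 11.5 in replicate 2, and were above 0 in 3 of 5 classes in each. In the strongest class, 90.8% and 93.9% of shared regions held a Sox3 control peak, against 90.8% and 95.5% of Sox3-only regions. In the weakest class the shares were 36.0% and 48.3% at shared regions, against 27.8% and 36.8% at Sox3-only regions.

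The shared regions with the best mean rank over the 4 libraries were mostly places called with every antibody. The first, chromosome 20, 4437650 to 4438046, had fold enrichments of 37.0 and 35.1 with Meis2b and 32.6 and 34.9 with Sox3, and a peak in all 20 libraries. The second, chromosome 17, 53292594 to 53292877, had 34.9 and 37.9 with Meis2b and 32.1 and 30.9 with Sox3, again with a peak in all 20. All 4 summits fell within 14 bp in the first and within 5 bp in the second. The third, chromosome 7, 25034902 to 25035755, and the fourth, chromosome 4, 57548155 to 57548619, were likewise called in all 20 libraries. In the third the mean summits of the factors stood apart, with a Meis2b minus Sox3 position of -229.5 bp. The fifth, chromosome 18, 23844064 to 23844909, was called in 15 libraries, with 19.5 and 24.2 for Meis2b and 16.3 and 19.4 for Sox3. It also had 19.1 and 20.1 with treated Hoxb1b, and 8.44 and 4.36 with treated Raraa. In all, 459 shared regions (3.77%) held a peak in each of the 16 libraries at 80% epiboly. Among the other regions, 0 of 4104 Meis2b-only and 8 of 50834 Sox3-only regions did.

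The 5 best ranked Meis2b sites without a Sox3 peak in treated embryos were called in 1 to 4 of the other 12 libraries at 80% epiboly. The first, chromosome 7, 12501386 to 12502176, had fold enrichments of 17.2 and 24.9 and summits of 65 and 87 fragments in Meis2b replicates 1 and 2. Treated Hoxb1b had 11.9 and 11.3 there, treated Raraa 4.52 in replicate 1 alone, and no control library at 80% epiboly had a peak. Chromosome 11, 43094055 to 43095396, had 14.9 and 15.4 with treated Meis2b and 5.44 and 5.26 with control Meis2b, besides 5.89 and 5.65 with treated Hoxb1b. At chromosome 5, 67207900 to 67208354, only Meis2b was called, with 18.0 and 19.9 in treated and 5.91 and 3.90 in control embryos. At chromosome 1, 23374743 to 23375222, treated Meis2b had 18.6 and 17.5 and treated Hoxb1b 7.86 and 8.48. Chromosome 11, 1405338 to 1405806, had 17.3 and 22.3 with treated Meis2b, and its sole other peak was 5.59 in Sox3 control replicate 2. The Meis2b summits of the replicates lay 1 to 34 bp apart in these 5 regions. Of all Meis2b-only regions, 986 (24.0%) had no peak in any of the other 12 gastrula libraries, against 44 shared regions (0.361%) and 3493 Sox3-only regions (6.87%). With 50834 of all 67110 regions, the Sox3-only class weighs most in the share over all regions.

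The strongest Sox3 sites without any Meis2b peak in treated embryos were called with Sox3 in both control libraries too. At chromosome 6, 23397859 to 23398421, Sox3 had 15.9 and 17.5 with atRA and 19.9 and 19.5 in controls, and treated Hoxb1b had 13.4 and 10.9. At chromosome 7, 9086493 to 9087125, Sox3 had 18.2 and 20.1 with atRA and 19.9 and 19.7 in controls. Chromosome 1, 50238472 to 50238944, had 15.6 and 17.6 with atRA and 25.3 and 16.9 in controls. The control values were above both treated values in the first of these regions and overlapped them in the second and the third. At chromosome 25, 12378895 to 12379367, Sox3 had 19.0 and 19.4 with atRA and 20.6 and 19.9 in controls, and Meis2b had a peak of 4.69 in control replicate 2. Chromosome 19, 40766507 to 40767195, had 18.3 and 17.0 with atRA and 19.1 and 17.1 in controls. Control values were thus above both treated values in the fourth region as well, and overlapped them in the fifth. All 5 held a treated Hoxb1b peak in at least 1 library, and 8 to 13 of the 20 libraries had a peak there. Fold enrichments are the authors' values for each list, each against its own background, and no test was made between lists.

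The 985 shared regions with no control peak of either factor were led by 5 regions, a set chosen after the control shares were seen. At chromosome 9, 6447289 to 6447939, treated Meis2b had 20.1 and 21.2, treated Sox3 13.3 and 18.4 and treated Hoxb1b 16.3 and 20.4. At chromosome 15, 3643475 to 3644125, Meis2b had 18.8 and 17.8, Sox3 14.7 and 15.9 and Hoxb1b 15.4 and 17.1. At chromosome 4, 8119925 to 8120518, Meis2b had 15.0 and 17.7, Sox3 8.92 and 9.01 and Hoxb1b 9.31 and 8.48. Chromosome 23, 32823119 to 32823864, and chromosome 13, 43206114 to 43206544, completed the list, with 15.2 and 11.4, and 15.9 and 17.6, for Meis2b. Every one of the 5 was called in both treated Hoxb1b libraries and in Raraa atRA replicate 1. None of them had a peak in either control library of Meis2b or Sox3, which is how they were chosen, and 8 to 14 of the 20 libraries had a peak there.

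**Figure D5:**
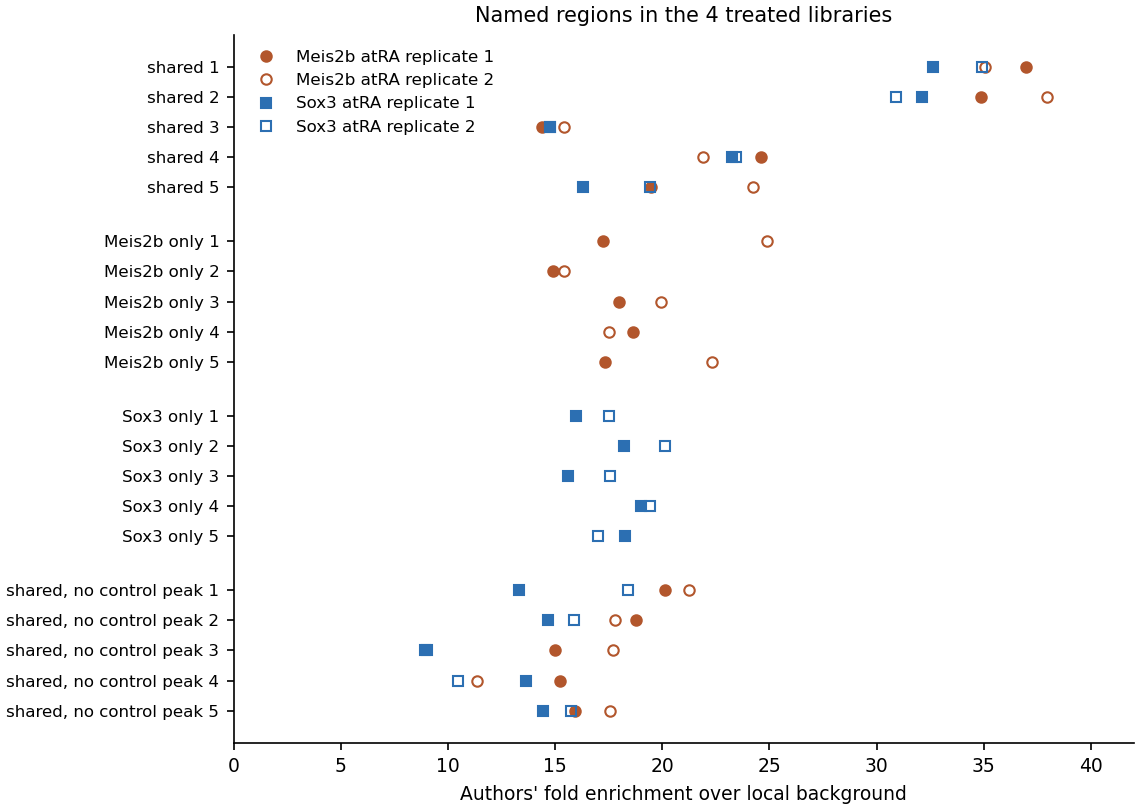
The authors' fold enrichment over local background (x axis) in the 4 treated libraries at the 5 best ranked shared, Meis2b-only and Sox3-only regions and the 5 best ranked shared regions without a control peak, in the order of the text; circles are Meis2b and squares Sox3, filled for replicate 1 and open for replicate 2. Regions of a single factor have no symbol of the other because no peak was called, and the 2 strongest shared regions exceed 30 in all 4 libraries.

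Both factors were spread over all chromosomes. Meis2b sites numbered 6.94 per Mb on chromosome 4, the lowest, and 16.2 per Mb on chromosome 23, the highest, with a median of 12.2 over the 25 chromosomes. Sox3 sites ranged likewise, with 28.8 per Mb on chromosome 4, 56.7 on chromosome 23 and a median of 47.1. The share of Meis2b sites on Sox3 sites varied little, between 69.6% on chromosome 21 and 78.4% on chromosome 16, and on chromosome 4 it was 75.4%. Shared regions clustered in places. Windows of 100 kb held a median of 1 shared region where they held any, and 436 of 13414 windows held at least 5. The densest, chosen after the counts were seen, was chromosome 10, 16800001 to 16900000, with 19 shared regions, no Meis2b-only region and 14 Sox3-only regions. Chromosome 5, 23900001 to 24000000, followed with 16 shared and 5 Sox3-only regions. Sox3-only regions were densest at chromosome 25, 34600001 to 34700000, with 26 of them beside 2 shared regions, and at chromosome 3, 23500001 to 23600000, with 25 beside 6. No window held more than 5 Meis2b-only regions. Meis2b sites without a Sox3 peak lay a median of 6.33 kb from the nearest Sox3 site, and 61.6% lay within 10 kb of one. Sox3 sites without a Meis2b peak lay a median of 24.7 kb from the nearest Meis2b site, of which there were fewer. The distances that the density of sites alone would give were not computed. These values therefore do not show that the 2 factors lie near each other. An annotation of this build was not used here, so regions are given by position, without genes.

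Set against other pairs of antibodies in treated embryos, Meis2b sites fell on Sox3 sites (75.0%) more often than on Hoxb1b sites (65.0%) or Raraa sites (39.6%), in the order of the number of sites of those factors. Sox3 sites overlapped Meis2b sites at 19.6%, Hoxb1b sites at 38.5% and Raraa sites at 24.4%, and both Hoxb1b and Raraa had more sites than Meis2b. Meis2b and Hoxb1b were also compared with lists of equal length. Among the 10000 strongest peaks, Meis2b replicates 1 and 2 shared 43.4% and 41.8% with the Sox3 libraries on average, and Hoxb1b replicates 1 and 2 shared 56.3% and 52.3%. The difference of -11.7 points had p = 0.333 (exact permutation test, two-sided), the smallest that 2 libraries against 2 allow. Lists of equal length still differed in depth. The background was 0.910 and 0.533 fragments covering a base in Hoxb1b replicates 1 and 2, against 0.494 and 0.256 in Meis2b replicates 1 and 2. The part of depth in this difference was not tested. In untreated embryos the same rule gave 5619 Meis2b sites and 40711 Sox3 sites. Of these control sites, 46.0% of Meis2b and 6.29% of Sox3 overlapped the other factor.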

How the data were processed

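Chromatin immunoprecipitation was read from 1 peak list per library. Each deposited list carries a single name prefix of its own. Both Sox3 control prefixes hold the number 2, so replicate numbers were taken from the sample labels. The submitters' processing notes name Bowtie, SAMtools, MACS2 and the build GRCz10 (danRer10), without versions. The input control and the handling of duplicate reads are not given in the sources used here. Each peak carries the authors' fold enrichment (a ratio over local background), −log10 p and −log10 q, as deposited, and a summit. Every list ends near q = 0.05.

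Fragments over each summit were recovered as the whole number whose Poisson p and fold match the deposited values within 0.002 in −log10 p, which solved 100% of the peaks. They give the depth, and weak peaks rest on few fragments. Sites are unions of replicate peaks overlapping by at least 1 bp on chromosomes 1 to 25. Strength is the rank by the authors' p within a list. Named regions are the 5 with the best mean rank in each class, single-factor ones with no peak of the other factor. Exact permutation tests compared libraries. The code was tested on simulated data (Python 3.11.15, NumPy 2.4.6, SciPy 1.17.1, pandas 2.3.3). Members, classes and tests were chosen with earlier results of these data known. Genes and sequences were not analysed here, since the reference table at hand is of another build.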

Additional observations from a re-analysis of the deposited data

How the results depend on the processing

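The tested differences kept their direction under all alternatives run. Exact permutation tests gave p = 0.333 without a replicate block and p = 0.5 with it, and these designs cannot pass 0.05. The shares moved. The share of Meis2b sites on Sox3 sites (75.0%) was 76.4% at a −log10 q of at least 5, 50.6% with the 10000 strongest peaks of each list, 56.5% when overlaps had to cover 50% of both intervals, 66.1% in 200-bp windows around summits and 71.9% with sites cut to the part covered by both replicates. The share of Sox3 sites on Meis2b sites (19.6%) was 19.0%, 38.3%, 14.2%, 16.9% and 17.8% under the same 5 settings. Leaving out 1 library at a time gave 39.2% to 80.3% for Meis2b sites and 10.1% to 34.7% for Sox3 sites. There the remaining library's whole list counts as sites, or a single peak suffices as a partner. Without regions called in all 16 gastrula libraries, an alternative chosen after seeing the data, the shares were 74.3% and 19.0%. Other causes of these moves were not tested. With 1 library left out, the log2 ratio of peak number was -1.62 to -1.19, the overlap difference 18.4 to 38.2 points and the summit distance difference 5 to 23 bp. The overlap with Sox3, Meis2b minus Hoxb1b (-11.7 points), was -16.4 to -9.06 points under alternatives chosen after seeing the data, and -13.7 to -9.70 with 1 library left out. In 200-bp windows, also chosen after seeing the data, shared regions still had the highest share of peaks in 16 of 16 libraries. Replicate numbers are shared by label only, and the replicate differences of Meis2b and Sox3 hardly correlated (r = 0.02 over 12172 regions). With a replicate block the log2 ratio was -1.40 and the Meis2b minus Hoxb1b difference -11.7 points. The overlap difference was 28.1 points and the distance difference 13 bp. For these 2 the block kept, between antibodies, only pairs of unlike replicate number. The shares come from no test, so they have no block. Meis2b atRA replicate 2, the shallowest list compared, called peaks from 3 fragments, and the Sox3 atRA lists from 5. The part of depth in the shares was not tested.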

Other observations

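Peaks also fell on 741 sequences outside chromosomes 1 to 25. There the same rule gave 403 Meis2b sites, of which 64.3% overlapped a Sox3 site, and 1206 Sox3 sites, of which 21.9% overlapped a Meis2b site.

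Shared regions without any Hoxb1b or Raraa peak at 80% epiboly were led by 3 regions, chosen after their values were seen. At chromosome 7, 19299301 to 19299718, treated Meis2b had a fold enrichment of 11.6 and 7.98 and treated Sox3 5.43 and 5.64, and all 4 control libraries of these factors had a peak. At chromosome 11, 21445649 to 21446030, Meis2b had 10.5 and 7.94 and Sox3 8.78 and 11.8, and Sox3 alone was called in controls, with 14.9 and 11.2. At chromosome 22, 37898720 to 37899596, Meis2b had 7.09 and 8.05 and Sox3 9.68 and 9.70. Its Meis2b summits lay far below the Sox3 summits, with a mean Meis2b minus Sox3 position of -491.5 bp.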
